A study of Mus musculus with 9 samples.

Results

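Pancreatic islets exposed to inflammatory cytokines together with nanoparticles were compared with untreated islets, to record which transcripts were still changed in the presence of the particles and which were near the untreated level. The comparison used the 6 libraries whose labels name no treatment or the cytokine mixture with the particle, out of 9 in the series. All were total RNA of primary islets from mice of strain C57bl/6 with the genotype wt, and the age of the mice is not given in the labels. The 3 untreated libraries received neither cytokines nor particles. The 3 particle libraries came from islets exposed for 48 h to IL-1beta, TNF-alfa and IL6 and treated with PD-G-MSNPs, the particles of a study on polydopamine-coated mesoporous silica built for nutrient delivery. The other 3 libraries had the same cytokines without particles. They are called cytokine-only below and are used for the estimate of spread and for values set beside the comparison. Particles without cytokines were not analysed here, so a difference between particle and untreated islets belongs to the combination of both. Nothing in the labels says whether the libraries of a group came from separate mice or cultures, so the p-values rest on the spread from library to library, which may be technical.

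An islet is a small cluster of endocrine cells, mostly beta cells that make insulin, with alpha cells (glucagon), delta cells (somatostatin), and some endothelial, stromal and resident immune cells. IL-1beta and TNF-alfa act on islets mainly through the transcription factor NF-kB, and IL6 through STAT proteins. Known effects of such mixtures on islets are the induction of chemokines, of the inducible nitric oxide synthase and of antigen presentation genes, and a loss of transcripts that give the beta cell its identity.

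The total count per library was 23064836 to 32101145 in untreated and 17832949 to 25302772 in particle islets. Expression is given in CPM, the count as a share of the library's total after scaling by TMM factors, always in the order of replicates 1, 2 and 3. A gene was called higher or lower at a Benjamini-Hochberg adjusted p under 0.05 in edgeR's quasi-likelihood test over 17276 genes, and was taken as near the untreated level only where the 95% interval of its fold change lay inside 2-fold. A gene that was neither called nor inside 2-fold is left undecided. The tissue matched its label in the untreated libraries, where beta cell markers took 31.6%, 32.2% and 31.3% of all counts. In the particle libraries they took 9.97%, 23.6% and 17.0%. Particle replicate 2 stood apart from the other particle libraries. On the first principal component, which held 60.8% of the variance, it lay at -22.7, between the untreated libraries (-130 to -123) and the others of its group at 37.9 and 80.5. Among 10 beta cell markers, 3 were called lower and 0 higher with all libraries, 10 were lower without particle replicate 2, and 1 was lower without any other particle library or any untreated one. Of the 3 particle libraries, replicate 2 was the nearest to the untreated mean for 57.6% of genes. Results that rest on this library are given with and without it.

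Of the 17276 genes, 1961 (11.4%) were called higher and 1022 (5.92%) lower in particle than in untreated islets. At 2-fold or more there were 1478 higher and 745 lower genes, and at 4-fold or more 830 and 101. A further 5279 genes (30.6%) were not called and had an interval inside 2-fold. The remaining 9014 genes were undecided, since the median half-width of the 95% interval was 0.73 on the log2 scale. With all libraries the large called changes were thus mostly increases. The plot of fold change against mean level shows them rising well clear of the other genes. Another 2633 genes had a fitted change of 2-fold or more, in either direction, and were not called. The splits at 2-fold and 4-fold include particle replicate 2. How the calls divide depends on the scaling and the tool. Higher genes made up 65.7% of all calls here, 84.2% (3193 higher and 597 lower) with library totals and no TMM factors, a scaling that moved the median log2 fold change of all genes by 0.27. They made up 54.7% with DESeq2 (2345 and 1940), 52.2% with limma-voom (1632 and 1493), and 50.5% or 42.7% with limma on log2(FPKM + 0.1) (1653 and 1622) or log2(FPKM + 1) (1504 and 2022). Leaving out particle replicate 2 gave 2424 higher and 2121 lower genes (53.3% higher). Leaving out particle replicate 1 gave 1258 and 224 (84.9%), particle replicate 3 gave 1158 and 307 (79.0%), untreated replicate 1 gave 1179 and 488, replicate 2 gave 1023 and 328 (75.7%), and replicate 3 gave 887 and 228 (79.6%). Without cytokine-only replicate 1 there were 1593 and 683.

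**Figure D1:**
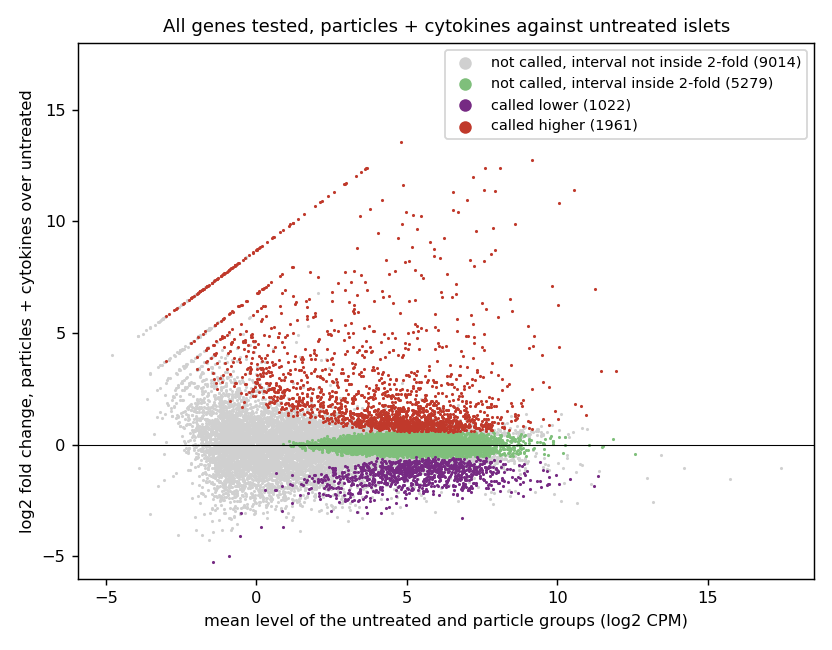
Each point is 1 of the 17276 genes tested. The x axis is the mean level (log2 CPM) and the y axis the log2 fold change of particle over untreated islets, with 1961 genes called higher, 1022 called lower, 5279 not called with an interval inside 2-fold and 9014 undecided in separate colours. The points above 4-fold are mostly calls of higher expression.

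Genes of 42 lists, by pathway or cell type, were followed through the comparison. Of 604 listed genes tested, 197 were called higher and 58 lower. Of the 197 higher calls, 150 held when each of the 9 libraries was left out in turn, against 16 of the 58 lower calls. Among those 16 were Slc7a2, Neurod1, Pax6, Foxa2, Rfx6, Myt1, Slc30a8, Trpm5, Cadps, Scg2, Atp2a2, Gad1, C1qa and Pdgfrb. The stacked bars of calls run from interferon-stimulated genes, with all 25 members called higher, to beta cell functions at the other end.

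**Figure D2:**
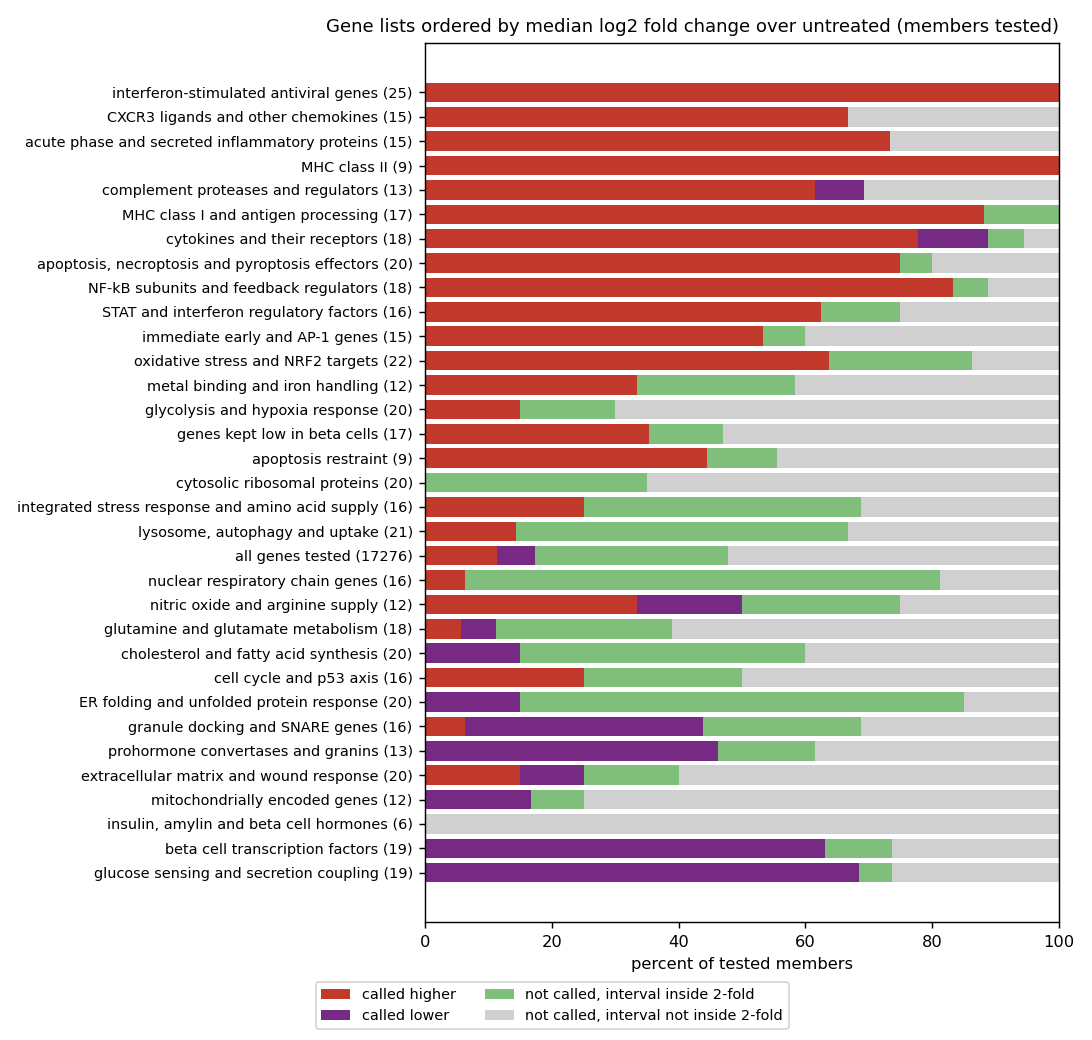
For each pathway list (rows, ordered by the median log2 fold change), the bars give the percent of tested members called higher, called lower, not called with an interval inside 2-fold, or undecided. The interferon list is wholly higher, the nuclear respiratory chain and endoplasmic reticulum lists are mostly inside 2-fold, and lower calls gather in the lists of beta cell function.

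Chemokines, the secreted proteins that draw leukocytes to a tissue, were higher with the particles. Of 15 tested, 10 were called higher and 0 lower, with a median log2 fold change of 5.60 against 0.05 over all genes. Cxcl9, a ligand of the chemokine receptor CXCR3 found on T cells (ENSMUSG00000029417, GRCm39 chromosome 5 from 92469206 to 92475938), was at 0.165, 0.138 and 0 CPM in the untreated and at 739, 285 and 607 CPM in the particle libraries. All 3 particle libraries were far above every untreated one, a separation that 22.9% of all genes showed in this direction (log2 fold change 12.40 with SE 0.71, adjusted p = 1.46e-06). Cxcl10, the neighbouring CXCR3 ligand (ENSMUSG00000034855, chromosome 5 from 92494497 to 92496748), was at 0.537, 2.30 and 0.574 CPM against 5709, 1829 and 1577 CPM, a log2 difference of 11.40 with SE 0.88 (adjusted p = 1.13e-05). Particle replicate 1 was the highest of the 3 for both. Cxcl11, the remaining CXCR3 ligand, had 1 count over the untreated libraries and 3830 over the particle libraries, a ratio of 4150 with a counting interval of 744 to 163950. It overlaps Art3, so reads may belong to either gene. Ccl2, which attracts monocytes, spread more, at 0.206, 0.920 and 0.144 CPM against 23.6, 7.84 and 93.5 CPM (log2 fold change 6.67 with SE 1.15, adjusted p = 0.00674). The groups of Ccl2 did not overlap, but its call was lost without untreated replicate 3 (adjusted p = 0.0510). The number of chemokines called higher was 6 without untreated replicate 3 and 5 with limma-voom. Cxcl3, a neutrophil attractant, had no count in untreated islets and was at 4.38, 4.38 and 66.0 CPM in particle islets, at least 618-fold higher, and its call was lost without any 1 of 7 libraries (each untreated and each cytokine-only library, and particle replicate 1, adjusted p up to 0.127).

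Among 18 cytokines and receptors, 14 were called higher and 2 lower (median 2.47). Tnf, which encodes TNF itself, was at 0.124, 0.460 and 0.108 CPM against 19.6, 3.50 and 10.1 CPM (log2 fold change 5.61 with SE 0.72, adjusted p = 0.000424). Il6 was at 0, 1.01 and 0.0718 CPM against 5.71, 1.08 and 24.8 CPM. Particle replicate 2 was barely above the highest untreated library for Il6, and the call (adjusted p = 0.0444) was lost in 7 of the 9 omissions, with an adjusted p up to 0.182. Of the receptors, Tnfrsf1b, a TNF receptor, was at 4.01, 5.52 and 3.41 CPM against 33.0, 19.9 and 28.3 CPM (log2 fold change 2.65, adjusted p = 6.30e-05). Il15ra, which presents interleukin-15, was at 9.91, 8.46 and 11.4 CPM against 75.0, 41.1 and 45.2 CPM (log2 fold change 2.43, adjusted p = 9.51e-05). Il13ra1, a chain of the interleukin-13 receptor, had a log2 fold change of 2.50 (adjusted p = 0.000147). These 3 receptor genes were high in every particle library. Tnfrsf1a, the widely expressed TNF receptor, was at 89.6, 84.1 and 100.1 CPM against 267, 206 and 214 CPM (log2 fold change 1.33, adjusted p = 0.00111). Il6st, the signalling chain shared by IL6 and related cytokines, was called higher too, at 50.1, 70.4 and 55.9 CPM against 144, 67.7 and 144 CPM (log2 fold change 1.01, adjusted p = 0.0410). Particle replicate 2 lay inside the untreated range of Il6st, and that call was lost in 6 of the 9 omissions (without any 1 untreated library, cytokine-only replicate 1, or particle replicate 1 or 3, adjusted p up to 0.147). The genes called lower were a receptor of IL-1beta and one of IL6. Il1r1, the signalling receptor of IL-1beta, was at 305, 337 and 259 CPM against 87.9, 157 and 38.4 CPM (log2 fold change -1.67, adjusted p = 0.0191), and Il6ra, which binds IL6, at 81.8, 109 and 104 CPM against 56.9, 43.8 and 27.9 CPM (log2 fold change -1.20, adjusted p = 0.0209). Both groups of values lay wholly below the untreated ones, but the call of Il1r1 was lost without untreated replicate 2 or particle replicate 1 (adjusted p up to 0.0701) and that of Il6ra without untreated replicate 2, untreated replicate 3 or particle replicate 3 (up to 0.0732). Ifnar1, a chain of the type I interferon receptor, was near the untreated level (log2 fold change 0.08, 95% interval -0.40 to 0.55).

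Of 18 genes of the NF-kB pathway, 15 were called higher and 0 lower (median 1.93), and 13 of the 15 calls held with each library left out. Nfkb2 and Relb encode the subunits of the non-canonical NF-kB dimer. Nfkb2 was at 16.2, 15.2 and 16.8 CPM against 106, 78.1 and 115 CPM (log2 fold change 2.63 with SE 0.22, adjusted p = 2.08e-05), with the overlapping gene Psd making its share uncertain, and Relb at 7.56, 9.52 and 7.28 CPM against 89.6, 55.6 and 68.1 CPM (log2 fold change 3.13, adjusted p = 3.79e-05). Feedback inhibitors of the pathway were among the called genes. Tnip1, a partner of the deubiquitinase A20, was at 39.5, 30.7 and 38.2 CPM against 309.6, 222 and 277 CPM (log2 fold change 2.90, adjusted p = 1.58e-05). Tnfaip3, which encodes A20, was at 1.61, 3.73 and 2.33 CPM against 81.9, 27.5 and 68.3 CPM (log2 fold change 4.54, adjusted p = 5.87e-05). Particle replicate 2 was the lowest particle library for each of these and still above all untreated ones. Cyld, another deubiquitinase that restrains NF-kB, was near the untreated level at 36.8, 42.9 and 35.7 CPM against 41.5, 34.4 and 44.2 CPM (log2 fold change 0.06, 95% interval -0.32 to 0.44).

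Of 16 STAT and interferon regulatory factor genes, 10 were called higher and 0 lower (median 1.87). Irf1, a transcription factor that drives antigen presentation genes, was at 50.9, 51.4 and 53.3 CPM against 1795, 792 and 742 CPM (log2 fold change 4.42, adjusted p = 1.90e-05). Irf7, which amplifies interferon production and overlaps Phrf1, was at 6.19, 4.09 and 4.56 CPM against 349, 247 and 242 CPM (log2 fold change 5.82 with SE 0.32, adjusted p = 1.40e-06). Both separated the groups completely, with particle replicate 1 the highest. Socs1, a feedback inhibitor of JAK kinases, was at 2.93, 1.79 and 2.33 CPM against 86.5, 85.3 and 71.7 CPM (log2 fold change 5.10, adjusted p = 1.89e-06). Socs3, the inhibitor most tied to IL6, was not called at 14.5, 33.4 and 39.1 CPM against 54.3, 48.8 and 47.3 CPM (log2 fold change 0.79, adjusted p = 0.0977), although its groups did not overlap. Irf3, a constitutive transcription factor of the response to viral nucleic acid, was inside 2-fold (log2 fold change -0.19, 95% interval -0.61 to 0.22).

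All 25 interferon-stimulated antiviral genes were called higher (median 6.62), and all 25 calls held when each library was left out. No interferon is named in the cytokine mixture. Rsad2, an antiviral enzyme also called viperin (ENSMUSG00000020641, chromosome 12 from 26492745 to 26506451), was at 1.61, 1.98 and 1.94 CPM in untreated and at 218, 141 and 184 CPM in particle islets. Its particle values lay close together and far above the untreated ones (log2 fold change 6.62 with SE 0.26, adjusted p = 4.31e-07). Xaf1, an interferon target that can promote apoptosis, was at 2.56, 1.29 and 1.54 CPM against 237, 145 and 209 CPM (log2 fold change 6.77, adjusted p = 9.10e-07). Ifi44, a gene of the same response, had 3 counts over the untreated libraries against 4165, a ratio of 1504 with a counting interval of 514 to 7297. Gbp2, a guanylate-binding protein that attacks intracellular microbes and has close paralogs, was at 1.24, 1.79 and 0.574 CPM against 2577, 1045 and 2814 CPM (log2 fold change 10.81, adjusted p = 1.46e-06). Even the member that moved least, Ifih1, a sensor of viral RNA, was at 5.90, 6.49 and 6.60 CPM against 35.5, 22.3 and 38.7 CPM (log2 fold change 2.34). The median of the list lay 6.84, 6.07 and 6.59 above the untreated mean on the log2 scale in the 3 particle libraries, and 6.12, 6.05 and 6.45 above it in the cytokine-only libraries. Particle replicate 2 was the nearest of the 3 to the untreated mean for 20 of the 25 genes.

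Because these genes moved together, their promoters were read for the letters of the interferon response element and of an NF-kB site. The promoters are the 300 bases from 250 before to 50 after the gene start in RefSeq on GRCm38.p6, an earlier build than the GRCm39 coordinates of the expression table. The interferon element was searched as GAAA, any 2 bases and GAAA, on either strand. It occurred in 13 of the 17 promoters matched from the interferon list (76.5%) and in 3.49% of 27025 promoters in all. The NF-kB-like site, searched as GGG, any 2 bases and TTTCC, occurred in 6 of the 15 promoters matched from the NF-kB list (40%) and in 1.62% of all. In the chemokine list the interferon element occurred in 1 of 8 promoters and the NF-kB-like site in 2 of 8. In the class I list they occurred in 4 and 1 of 15 promoters. The promoters of Cxcl9, Xaf1, Ifi44, Tap1, Psmb9 and Tnip1 were read too and matched neither. The 4 promoters below were chosen after seeing that they hold a match. They show where it lies in 1 gene each of the chemokine, interferon, class I and NF-kB lists. Capitals mark matches on either strand, read 5′ to 3′ along the gene. A match is a description of letters and not a measured binding site.

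Cxcl10, chr5:92348840-92349139, minus strand, with the interferon element starting at -213 from the gene start: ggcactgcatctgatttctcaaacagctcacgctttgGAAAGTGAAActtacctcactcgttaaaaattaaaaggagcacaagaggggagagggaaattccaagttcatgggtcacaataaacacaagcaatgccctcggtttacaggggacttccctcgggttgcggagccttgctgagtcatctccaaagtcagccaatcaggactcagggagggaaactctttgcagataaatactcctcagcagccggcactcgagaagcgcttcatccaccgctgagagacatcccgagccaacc

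Rsad2, chr12:26456403-26456702, minus strand, with the interferon element on the opposite strand at -120: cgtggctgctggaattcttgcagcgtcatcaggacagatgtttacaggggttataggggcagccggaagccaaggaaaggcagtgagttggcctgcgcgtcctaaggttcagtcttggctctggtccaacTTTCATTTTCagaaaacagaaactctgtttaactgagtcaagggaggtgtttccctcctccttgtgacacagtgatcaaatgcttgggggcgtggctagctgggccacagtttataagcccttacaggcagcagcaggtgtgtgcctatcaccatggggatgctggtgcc

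B2m, chr2:122147437-122147736, plus strand, with the interferon element at -139 and the NF-kB-like site on the opposite strand at -126: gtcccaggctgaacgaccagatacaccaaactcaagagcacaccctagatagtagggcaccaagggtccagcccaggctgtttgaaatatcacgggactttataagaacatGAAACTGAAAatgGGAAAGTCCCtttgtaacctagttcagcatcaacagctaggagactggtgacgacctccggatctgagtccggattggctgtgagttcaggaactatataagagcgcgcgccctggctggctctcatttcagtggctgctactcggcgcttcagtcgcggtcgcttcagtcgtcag

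Nfkb2, chr19:46304487-46304786, plus strand, with the NF-kB-like site at -11: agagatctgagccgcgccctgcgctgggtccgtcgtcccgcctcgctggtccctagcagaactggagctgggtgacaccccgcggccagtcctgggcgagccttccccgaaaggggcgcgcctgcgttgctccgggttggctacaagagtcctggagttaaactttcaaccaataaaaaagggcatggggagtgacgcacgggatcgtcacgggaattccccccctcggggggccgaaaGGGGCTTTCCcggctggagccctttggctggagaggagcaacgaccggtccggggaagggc

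Class I antigen presentation, by which every nucleated cell shows peptides to CD8 T cells, was mostly higher. Of 17 genes, 15 were called higher and 0 lower (median 3.31), and all 15 calls held in every omission. B2m, which encodes beta-2 microglobulin, the constant partner of class I heavy chains (ENSMUSG00000060802, chromosome 2 from 121978167 to 121983564), was at 43.9, 37.7 and 36.3 CPM against 6953, 3094 and 4635 CPM (log2 fold change 6.96 with SE 0.41, adjusted p = 1.69e-06). Tap1, a subunit of the transporter that feeds peptides to class I molecules, was at 31.0, 18.1 and 27.5 CPM against 1414, 837 and 793 CPM (log2 fold change 5.31, adjusted p = 2.86e-06). It overlaps Psmb9, an immunoproteasome subunit that was called higher as well (log2 fold change 4.38), so the split of reads between them is uncertain. The heavy chain H2-K1, one of many close paralogs, was at 792, 597 and 796 CPM against 9364, 6697 and 5683 CPM (log2 fold change 3.31). The 2 members that were not called were the general chaperones of class I loading. Pdia3 was at 729, 976 and 893 CPM against 733, 676 and 565 CPM (log2 fold change -0.40, 95% interval -0.88 to 0.09), and Calr at 847, 922 and 1119 CPM against 709, 792 and 592 CPM (log2 fold change -0.46, 95% interval -0.98 to 0.05). Both were inside 2-fold of the untreated level.

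All 9 genes of class II presentation were called higher (median 4.78). Cd74, the invariant chain of class II molecules, was at 24.4, 16.7 and 39.4 CPM against 2805, 1896 and 1489 CPM (log2 fold change 6.26 with SE 0.42, adjusted p = 3.66e-06). H2-Ab1, a class II chain, was at 7.93, 5.93 and 11.8 CPM against 349.9, 209 and 194 CPM (log2 fold change 4.87, adjusted p = 7.40e-06), and H2-DMb1, which helps load peptides, at 1.16, 1.98 and 1.22 CPM against 63.1, 30.7 and 25.4 CPM (log2 fold change 4.78, adjusted p = 1.87e-05). Ciita, the master regulator of class II genes, was at 0.330, 0.506 and 0.897 CPM against 31.2, 9.93 and 8.24 CPM. Particle replicate 1 held the highest value of these 4 genes. Class II genes are known from professional antigen-presenting cells, and markers of macrophages, given further on, took 0.0636%, 0.0468% and 0.0868% of particle counts against 0.0447%, 0.0432% and 0.0364% of untreated counts. The part of these cells in the class II values was not tested. The call of Ifi30, a lysosomal thiol reductase, was lost without untreated replicate 2, untreated replicate 3 or particle replicate 3 (adjusted p up to 0.0670).

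Of 13 complement genes, 8 were called higher and 1 lower (median 3.39). C1ra and C1s1, the proteases of the first complement component, rose from near nothing. C1ra, which has a close paralog, was at 1.11, 1.43 and 0.933 CPM against 699, 289 and 486 CPM (log2 fold change 8.73 with SE 0.43, adjusted p = 8.53e-07), and C1s1 at 0.206, 0.644 and 0.179 CPM against 129, 31.7 and 67.5 CPM (log2 fold change 7.82, adjusted p = 1.76e-05). Serping1, their inhibitor, was at 34.3, 61.3 and 59.8 CPM against 1736, 575 and 771 CPM (log2 fold change 4.31, adjusted p = 7.58e-05). Protease and inhibitor genes were thus high in the same libraries. Cd59a, which protects cells from complement lysis, was the lower one at 23.5, 32.9 and 33.2 CPM against 8.32, 19.3 and 4.62 CPM, a call (adjusted p = 0.0408) lost without any 1 untreated library, cytokine-only replicate 1 or 2, or particle replicate 1 or 3.

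Acute phase and other secreted proteins of inflammation were called higher in 11 of 15 cases and lower in 0. The median log2 fold change was 4.97 as fitted and 4.80 with the 3 genes that had no untreated count set at their lower bounds. Il18bp, a secreted antagonist of interleukin-18 that overlaps Numa1, was at 9.08, 12.8 and 13.0 CPM against 599, 239 and 259 CPM (log2 fold change 4.97, adjusted p = 1.26e-05). Serpina3g, a serine protease inhibitor with close paralogs, had no untreated count and 13.6, 4.78 and 17.2 CPM in particle islets, at least 285-fold higher. Orm1, an acute phase plasma protein, had 2 counts against 246, a ratio of 133 with a counting interval of 36.5 to 1107. Lcn2, an iron-siderophore binder, was at 0.826, 33.8 and 4.05 CPM against 1684, 1365 and 2340.3 CPM (log2 fold change 7.13, adjusted p = 0.00532). Untreated replicate 2 was the highest untreated library of Lcn2 and still lay far below the particle libraries. The number called was 7 without untreated replicate 3 and 7 with limma-voom.

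Nitric oxide made by the inducible synthase Nos2 is a known toxic product in cytokine-treated islets. Nos2 (ENSMUSG00000020826, chromosome 11 from 78811613 to 78851080) was at 0, 1.29 and 0.431 CPM against 848, 205 and 353 CPM (log2 fold change 9.71 with SE 0.998, adjusted p = 0.000142). Every particle library was far above the highest untreated one, and replicate 1 was the highest. In the list of 12 genes of nitric oxide and arginine supply, 4 were called higher and 2 lower (median 0.01). Odc1, which makes polyamines from ornithine, was at 72.8, 68.0 and 84.3 CPM against 151, 141 and 254 CPM (log2 fold change 1.28, adjusted p = 0.00542). Slc7a2, an arginine transporter, went the other way at 189, 239.7 and 249 CPM against 51.8, 88.8 and 39.0 CPM (log2 fold change -1.91, adjusted p = 0.00164). Gch1, needed for the synthase's cofactor, was near the untreated level at 371, 260.4 and 339 CPM against 275, 327 and 252 CPM (log2 fold change -0.19, 95% interval -0.77 to 0.40), as was Asl, which regenerates arginine (-0.32, -0.74 to 0.10). The higher calls were 2 without particle replicate 1 or 3. The lower call of Qdpr, which recycles that cofactor, was lost without any 1 untreated library, cytokine-only replicate 1 or 2, or particle replicate 1 or 3, leaving 1 lower gene.

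Genes of oxidative stress, some of them targets of the transcription factor NRF2, were mostly called higher. The part of NRF2 in these values was not tested. Of 22 genes of oxidative stress, 14 were called higher and 0 lower (median 1.37). Hmox1, heme oxygenase, was at 57.6, 57.7 and 137 CPM against 2258, 896 and 935 CPM (log2 fold change 4.01 with SE 0.50, adjusted p = 0.000357). Nqo1, a quinone reductase, was at 8.96, 8.83 and 7.93 CPM against 54.1, 31.9 and 39.4 CPM (log2 fold change 2.29, adjusted p = 7.78e-05), and Srxn1, which repairs peroxiredoxins, at 88.1, 113 and 94.6 CPM against 374, 308 and 360.2 CPM (log2 fold change 1.82, adjusted p = 0.000167). Sod2, the mitochondrial superoxide dismutase and an NF-kB target, was at 119, 92.9 and 102 CPM against 374, 199.8 and 447 CPM (log2 fold change 1.70 with SE 0.33, adjusted p = 0.00665). None of these genes overlapped between the groups. Keap1, the repressor of NRF2, was near the untreated level (log2 fold change 0.24, 95% interval -0.28 to 0.77), as was Prdx6, a peroxiredoxin (0.24, -0.22 to 0.69). Without untreated replicate 2 or 3 the list had 9 higher genes. In the iron and metal list, 4 of 12 were called higher and 0 lower (median 0.85), among them Slc11a2, an iron importer, at 36.0, 45.1 and 40.6 CPM against 229.8, 108 and 163 CPM (log2 fold change 2.04, adjusted p = 0.000892). Hamp, which encodes the iron hormone hepcidin, had 3 untreated counts against 1399, a ratio of 505 with a counting interval of 173 to 2453.

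Genes called higher included effectors of cell death and inhibitors of it. Of 20 effectors of apoptosis, necroptosis and pyroptosis, 15 were called higher and 0 lower (median 2.13), and 12 of the calls held in every omission. Fas, a death receptor, was at 0.0826, 0.368 and 0.215 CPM against 50.5, 34.2 and 62.6 CPM (log2 fold change 7.78 with SE 0.42, adjusted p = 1.40e-06). Casp4, an inflammatory caspase, was at 0.0826, 0.368 and 0.179 CPM against 76.1, 39.1 and 69.8 CPM (log2 fold change 8.20, adjusted p = 1.46e-06), and Mlkl, the executor of necroptosis, at 2.02, 2.21 and 1.76 CPM against 105, 47.3 and 84.0 CPM (log2 fold change 5.30, adjusted p = 1.78e-06). Among 9 genes that restrain apoptosis, 4 were called higher and 0 lower (median 0.64). They included Cflar, which blocks caspase-8, at 28.6, 50.2 and 37.0 CPM against 131, 67.3 and 128 CPM (log2 fold change 1.49, adjusted p = 0.00769). Bcl2l1, which encodes Bcl-xL, was at 81.3, 57.9 and 77.0 CPM against 134, 128 and 122 CPM (log2 fold change 0.83, adjusted p = 0.0193). The call of Bcl2l1 was lost without untreated replicate 2, untreated replicate 3 or particle replicate 1 (adjusted p up to 0.0836), and each of these omissions left 2 called genes in the list. The caspase inhibitor Xiap (log2 fold change 0.32, 95% interval -0.21 to 0.85) and the p53 target Bbc3 (-0.20, -0.97 to 0.57) were inside 2-fold. The counts of transcripts do not measure cell death.

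**Figure D3:**
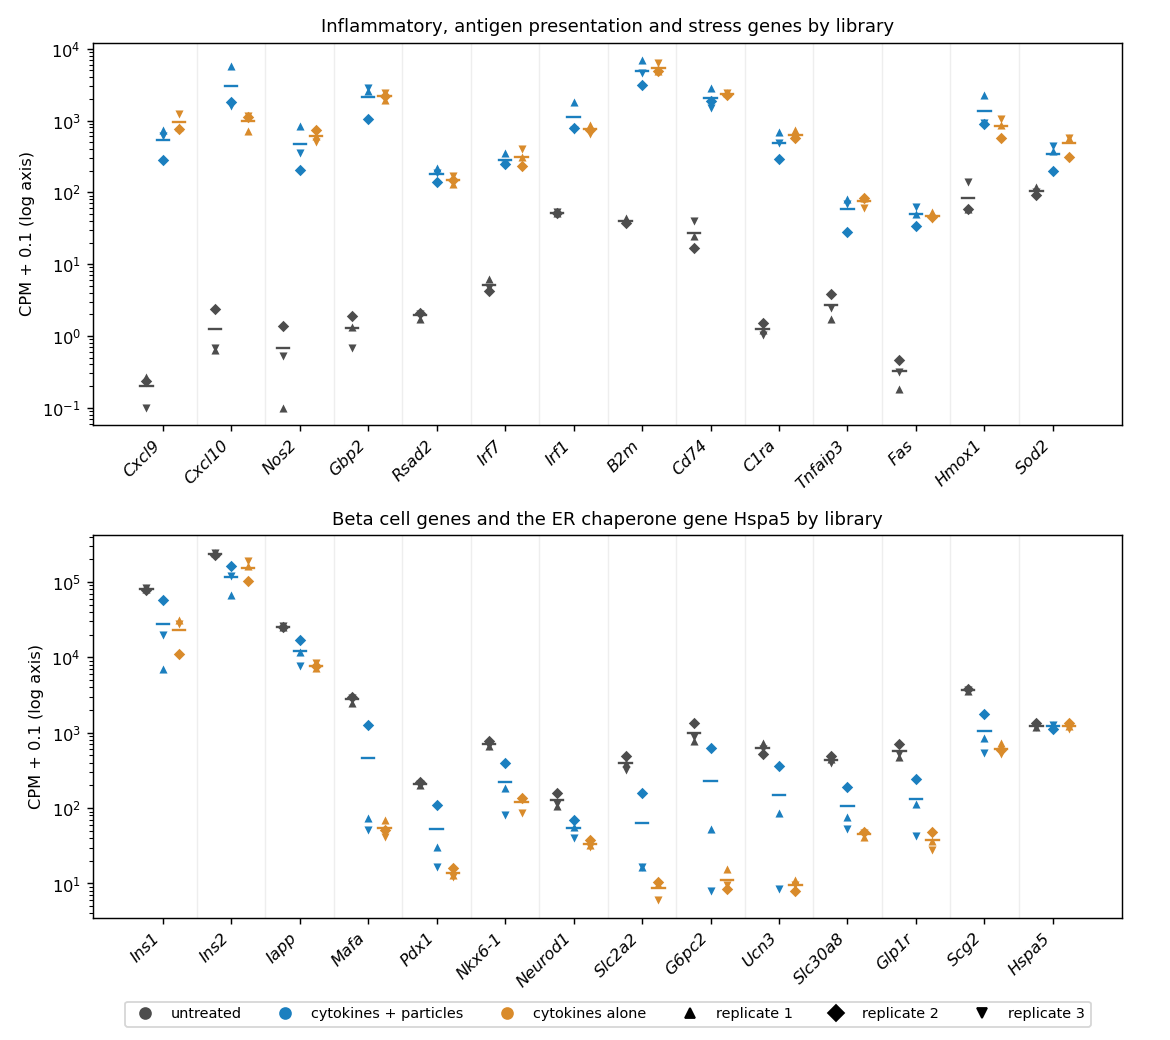
Levels (CPM + 0.1, log axis) of 14 inflammatory, antigen presentation and stress genes, and of 14 others, in each library of the untreated, cytokine-only and particle groups. The 14 others are beta cell genes and the ER chaperone gene Hspa5. Bars are at the group means. The first 14 genes separate untreated from particle libraries without overlap. In the beta cell genes particle replicate 2 (Mafa at 1263 CPM) lies between the untreated libraries and the other particle libraries (74.5 and 50.7 CPM). In Hspa5 it does not, and the groups overlap.

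Of 15 immediate early and AP-1 genes, 8 were called higher and 0 lower (median 1.5), led by Klf6 at 7.93, 6.21 and 6.35 CPM against 62.5, 33.0 and 82.0 CPM (log2 fold change 3.11, adjusted p = 8.44e-05) and by Jun, a subunit of AP-1, at 35.2, 30.0 and 51.0 CPM against 252, 171 and 315 CPM (log2 fold change 2.67, adjusted p = 0.000361). Without untreated replicate 1 or particle replicate 3 that count was 5. In the list of the cell cycle and p53, 4 of 16 were called higher and 0 lower (median -0.39). Over all genes 11.4% were called higher and 5.92% lower. Cdkn1a, the cell cycle inhibitor p21, was at 115, 56.2 and 100.2 CPM against 522, 505 and 626 CPM (log2 fold change 2.61, adjusted p = 0.00015), and Mdm2, the p53 ubiquitin ligase, at 44.6, 41.7 and 37.9 CPM against 185, 113 and 260.0 CPM (log2 fold change 2.17, adjusted p = 0.000421). Both are p53 targets, and Trp53 itself was called higher (log2 fold change 0.97, adjusted p = 0.00553). The proliferation gene Mki67 was not called at 0.743, 2.30 and 1.83 CPM against 0.0984, 1.53 and 0.349 CPM. Without particle replicate 2 this list had 3 lower genes.

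In the integrated stress response, a shared reaction to nutrient, ER and oxidative stress, 4 of 16 genes were called higher, 0 lower and 7 were near the untreated level (median 0.28). Over all genes these shares were 11.4%, 5.92% and 30.6%. Atf3, a stress-induced transcription factor, was at 6.03, 5.24 and 6.03 CPM against 229, 156 and 209 CPM (log2 fold change 5.10 with SE 0.23, adjusted p = 5.65e-07). Ppp1r15a, the phosphatase subunit that ends the translational block, was at 129.9, 53.3 and 80.1 CPM against 334, 543 and 578 CPM (log2 fold change 2.47, adjusted p = 0.000819), and Slc3a2, the heavy chain of amino acid transporters, at 537, 339.9 and 491 CPM against 994, 987 and 1096 CPM (log2 fold change 1.17, adjusted p = 0.00915). Among amino acid synthesis genes of the list, Asns, asparagine synthetase, was near the untreated level at 201, 239 and 214 CPM against 234, 233 and 258 CPM (log2 fold change 0.15, 95% interval -0.24 to 0.54), as was Aldh18a1, of proline synthesis, at 151, 190.1 and 180.2 CPM against 165, 170.2 and 137 CPM (-0.14, -0.59 to 0.30). Without particle replicate 2 the list had 3 lower genes, among them Phgdh (log2 fold change -0.72, adjusted p = 0.0421) and Shmt2 (-0.88, adjusted p = 0.0113), enzymes of serine synthesis and of serine to glycine conversion.

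None of the 6 beta cell hormone genes tested was called by edgeR, while 4 had an unadjusted p under 0.05 with lower values. In 5 of the 6 all particle values lay below the untreated ones, as they did in 20.6% of all genes. The other, Adcyap1, was at 0.215 CPM or less in untreated and at 0.392 CPM or less in particle islets. Ins1 and Ins2 encode insulin and are paralogs, and reads may be assigned to either. Ins1 (chromosome 19 from 52252735 to 52253914) was at 81168, 78410.0 and 84234 CPM in untreated and at 6995, 56970.0 and 19602 CPM in particle islets. Its particle values were far apart, with replicate 1 lowest and replicate 2 highest, which left a log2 fold change of -1.54 (95% interval -2.98 to -0.11, adjusted p = 0.124). Ins2 was at 240810.0, 231270.0 and 243930.0 CPM against 68085, 162870.0 and 121610.0 CPM (log2 fold change -1.02, 95% interval -1.95 to -0.09, adjusted p = 0.117). Iapp, which encodes amylin, co-secreted with insulin, was at 25092, 25301 and 26003 CPM against 11957, 17273 and 7701 CPM (log2 fold change -1.05, adjusted p = 0.0533). Ucn3, a maturity hormone of beta cells that acts on delta cells, was at 733, 528 and 616 CPM against 85.2, 359.6 and 8.28 CPM (log2 fold change -2.05, adjusted p = 0.176). In each of these genes particle replicate 2 was the highest particle library, and the groups did not overlap. Without it all of them were called lower, Ins1 with a log2 fold change of -2.66 (adjusted p = 0.00766), Ins2 with -1.38 (0.0465), Iapp with -1.41 (0.0126) and Ucn3 with -3.77 (0.00869). Then 5 of the 6 hormone genes tested were called lower, against 0 with all libraries, 2 with DESeq2, 3 with limma-voom and 2 with limma on log2(FPKM + 1). As a share of all counts, insulin transcripts took 28.8%, 29.2% and 28.5% in untreated and 8.55%, 21.6% and 16.1% in particle islets (exact two-sided permutation p = 0.1, the smallest that 3 against 3 libraries allow). In bulk RNA, fewer beta cells and less insulin RNA per beta cell cannot be told apart.

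Transcription factors of the beta cell were lower. Of 19, 12 were called lower and 0 higher (median -1.38). In 17 of them the particle values lay below every untreated value, as they did in 20.6% of all genes. The calls of 6 of the 12 held in every omission. Neurod1, which activates the insulin gene and overlaps Cerkl, was at 107, 160.1 and 115 CPM against 55.3, 69.2 and 40.4 CPM (log2 fold change -1.21 with SE 0.24, adjusted p = 0.00756). Myt1, a zinc finger factor of endocrine cells, was at 32.8, 37.0 and 30.2 CPM against 12.0, 14.6 and 11.8 CPM (log2 fold change -1.38, adjusted p = 0.00247). For both genes particle replicate 2 was close to the others of its group and below all untreated libraries. Pdx1, a factor of pancreas and beta cells whose counts may include the overlapping gene Plut, was at 200.3, 224 and 211 CPM against 30.7, 109 and 16.5 CPM (log2 fold change -2.03 with SE 0.54, adjusted p = 0.0303). Nkx6-1, which keeps the beta cell fate, was at 675, 788 and 661 CPM against 184, 397 and 82.0 CPM (log2 fold change -1.68, adjusted p = 0.0293). Pdx1 and Nkx6-1 lost their calls without any 1 untreated library, particle replicate 1 or particle replicate 3 (adjusted p up to 0.102 and 0.1). Mafa, the factor of mature beta cells (ENSMUSG00000047591, chromosome 15 from 75617339 to 75620077), was not called, since 1 particle library stood far above the others of its group. Its values were 2521, 2946 and 2878 CPM against 74.5, 1263 and 50.7 CPM (log2 fold change -2.59, 95% interval -4.97 to -0.20, adjusted p = 0.123). Without particle replicate 2 the log2 fold change of Mafa was -5.51 (adjusted p = 4.36e-06). With all libraries Mafa was called lower by limma-voom and by limma on log2(FPKM + 1) or log2(FPKM + 0.1). Glis3, a zinc finger factor of beta cells, was near the untreated level at 37.3, 40.1 and 33.4 CPM against 59.4, 31.5 and 47.9 CPM (log2 fold change 0.33, 95% interval -0.24 to 0.89). The count of lower factors was 7 without untreated replicate 2, untreated replicate 3 or particle replicate 3, 6 without particle replicate 1, and 15 without particle replicate 2.

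Genes that sense glucose and couple it to secretion were lower as well. Of 19, 13 were called lower and 0 higher (median -1.62), against 5.92% lower over all genes. In 18 the particle values lay wholly below the untreated ones, as they did in 20.6% of all genes. Slc30a8, the zinc transporter of insulin granules (ENSMUSG00000022315, chromosome 15 from 52158949 to 52199194), was at 445, 486 and 391 CPM against 76.4, 189 and 52.4 CPM (log2 fold change -2.06 with SE 0.39, adjusted p = 0.00608). Trpm5, a cation channel that overlaps Tssc4, was at 202, 181 and 239 CPM against 8.71, 48.5 and 7.06 CPM (log2 fold change -3.27 with SE 0.66, adjusted p = 0.0102). These were the only 2 calls of the list that held in every omission. Slc2a2, the glucose transporter GLUT2, was at 398, 493 and 316 CPM against 16.3, 158 and 16.3 CPM (log2 fold change -2.66, 95% interval -4.55 to -0.77, adjusted p = 0.0579), and G6pc2, a glucose-6-phosphatase subunit, at 768, 1350.2 and 869 CPM against 52.97, 624 and 7.93 CPM (log2 fold change -2.12, 95% interval -4.93 to 0.69, adjusted p = 0.265). Both were called without particle replicate 2, at -4.67 (adjusted p = 5.80e-06) and -5.07 (adjusted p = 0.00129). With all libraries both were called lower by limma-voom and by limma on log2(FPKM + 1) or log2(FPKM + 0.1). Slc2a2 was also called by DESeq2 and with the replicate numbers as a block (adjusted p = 0.0128). Glp1r, the receptor of the incretin GLP-1, was at 483, 701 and 523 CPM against 114, 243 and 42.1 CPM (log2 fold change -2.10, adjusted p = 0.0192), a call lost without untreated replicate 2, untreated replicate 3 or particle replicate 1 (up to 0.0736). Sytl4, which docks granules, was at 149, 262 and 150.4 CPM against 53.2, 101 and 31.6 CPM (log2 fold change -1.59, adjusted p = 0.0177) and lost its call without untreated replicate 2 or particle replicate 1 (up to 0.0699). Cacna1c, a calcium channel subunit, was inside 2-fold (log2 fold change -0.16, 95% interval -0.79 to 0.46). The count of lower genes was 8 without untreated replicate 1, 2 without untreated replicate 2, 4 without untreated replicate 3, 2 without particle replicate 1, 7 without particle replicate 3 and 7 without a filter on low counts, and 17 without particle replicate 2.

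The machinery that moves and processes hormone granules held called and uncalled genes. Of 16 granule docking and SNARE genes, 6 were called lower and 1 higher, and 4 were near the untreated level (median -0.61). Cadps, which primes granules, was at 73.1, 101 and 80.5 CPM against 32.7, 44.0 and 18.2 CPM (log2 fold change -1.42, adjusted p = 0.00894). Syt4, a synaptotagmin, was the higher gene at 78.0, 95.1 and 85.5 CPM against 155, 133 and 193 CPM (log2 fold change 0.89, adjusted p = 0.0161), a call lost without untreated replicate 1, untreated replicate 3 or particle replicate 3. Rims2, a scaffold of release sites, was near the untreated level (log2 fold change -0.08, 95% interval -0.59 to 0.42). The lower genes numbered 3 without untreated replicate 2 and 1 without untreated replicate 3 or particle replicate 1. Of 13 prohormone convertases and granins, 6 were called lower, 0 higher and 2 were near the untreated level (median -1.01). Scg2, a granin, was at 3584, 3849 and 3691 CPM against 840.5, 1762 and 531 CPM (log2 fold change -1.83 with SE 0.39, adjusted p = 0.0111). Pam, which amidates peptide hormones, was at 218, 352 and 302 CPM against 118, 196 and 119 CPM (log2 fold change -1.01, adjusted p = 0.0230), and lost its call without untreated replicate 2, untreated replicate 3, particle replicate 1 or particle replicate 3 (up to 0.0912). Cpe, the carboxypeptidase that finishes insulin, was near the untreated level at 2571, 3484 and 2927 CPM against 2307, 2429.5 and 3538 CPM (log2 fold change -0.12, 95% interval -0.71 to 0.47), as was Scg5, the chaperone of a convertase (-0.20, -0.66 to 0.27). Here 1 gene was called lower without untreated replicate 2, untreated replicate 3 or particle replicate 3, 2 without particle replicate 1 and 9 without particle replicate 2.

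Mature beta cells keep some ordinary genes at low levels. Of 17 such genes, 6 were called higher and 0 lower (median 0.66). Slc16a1, a lactate and pyruvate transporter, was at 0.372, 0.368 and 0.610 CPM against 7.19, 3.86 and 11.3 CPM (log2 fold change 4.02, adjusted p = 0.000201). Zyx, a focal adhesion protein, was at 20.2, 16.0 and 16.4 CPM against 47.6, 63.6 and 76.1 CPM (log2 fold change 1.83, adjusted p = 0.000584), and Mgst1, a glutathione transferase, at 1.03, 2.30 and 2.22 CPM against 6.79, 11.3 and 15.9 CPM (log2 fold change 2.61, adjusted p = 0.00676). Whole islets were sequenced, so the cells that carry these transcripts are not known. The same holds for glycolysis, where 3 of 20 genes were called higher, 0 lower and 3 were near the untreated level (median 0.68). Over all genes 11.4% were called higher, 5.92% lower, and 30.6% were not called with an interval inside 2-fold. Slc2a1, the ubiquitous glucose transporter, was at 22.5, 25.3 and 59.3 CPM against 266, 175 and 169 CPM (log2 fold change 2.51, adjusted p = 0.000953). Pfkfb3, a regulator of glycolytic flux, was at 3.51, 7.54 and 10.9 CPM against 90.8, 33.8 and 81.8 CPM (log2 fold change 3.23, adjusted p = 0.000684). Of the enzymes of the pathway itself, the hexokinase Hk2 was called (log2 fold change 2.88, adjusted p = 0.0101) and Pkm, pyruvate kinase, was inside 2-fold (-0.35, 95% interval -0.92 to 0.23). The glycolysis count was 6 without untreated replicate 3, 5 without cytokine-only replicate 3 or particle replicate 2, and 9 with library totals.

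In the list of ER folding and the unfolded protein response, 14 of 20 genes were not called and had an interval inside 2-fold, against 30.6% of all genes, while 0 were called higher and 3 lower (median -0.41). Hspa5, the ER chaperone BiP, was at 1183, 1329.6 and 1192 CPM against 1249.7, 1135 and 1254 CPM (log2 fold change -0.03, 95% interval -0.49 to 0.44). Its groups overlapped and covered nearly the same range. Edem1, of ER-associated degradation, was near the untreated level too (log2 fold change 0.22, 95% interval -0.16 to 0.60). Atp2a2, the ER calcium pump SERCA2 (chromosome 5 from 122591576 to 122640288), was clearly lower at 1233, 1321 and 1192 CPM against 496, 543 and 358 CPM (log2 fold change -1.42 with SE 0.28, adjusted p = 0.00668). Hyou1, a chaperone, was at 770.3, 1121 and 1178 CPM against 559, 608 and 232 CPM (log2 fold change -1.13, adjusted p = 0.0462). The calls of Hyou1 and of Pdia6, a disulfide isomerase, were lost without untreated replicate 2 or 3, cytokine-only replicate 1 or 2, or particle replicate 1 or 3 (adjusted p up to 0.129 and 0.137), which left 1 lower gene. There were 5 lower genes without particle replicate 2 and 6 with DESeq2.

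Of 16 nuclear genes of the respiratory chain, 12 were near the untreated level, 1 was called higher and 0 lower (median 0.04). Uqcrc2, of complex III, was at 98.9, 89.3 and 93.8 CPM against 104, 94.8 and 115 CPM (log2 fold change 0.15, 95% interval -0.22 to 0.52), and Ndufv1, of complex I, at 129, 102 and 123 CPM against 122, 144 and 114 CPM (0.10, -0.29 to 0.50). Cycs, cytochrome c, was the gene called higher, at 47.8, 41.2 and 56.3 CPM against 97.96, 90.4 and 114 CPM (log2 fold change 1.06, adjusted p = 0.0102), a call lost without untreated replicate 2 (adjusted p = 0.0549). Of 12 genes encoded by mitochondrial DNA, 2 were called lower and 0 higher (median -1.07), against 5.92% lower over all genes. In 10 the particle values lay below all untreated ones, as they did in 20.6% of all genes. mt-Nd5, which overlaps mt-Nd6, was at 914, 1466 and 998 CPM against 418, 713 and 368 CPM (log2 fold change -1.17, adjusted p = 0.0314), and mt-Atp6, which overlaps mt-Co3, was the other lower gene (-1.40, adjusted p = 0.0202). Both calls were lost without untreated replicate 2, untreated replicate 3, particle replicate 1 or particle replicate 3 (adjusted p up to 0.123 and 0.0765), and without particle replicate 2 there were 10 lower genes. mt-Co1, the most abundant, was inside 2-fold at 6959, 7298 and 6942 CPM against 4826, 5192 and 5994 CPM (log2 fold change -0.40, 95% interval -0.98 to 0.17). In all, mitochondrial transcripts took 1.71%, 1.95% and 1.70% of untreated and 1.13%, 1.54% and 1.17% of particle counts (exact two-sided permutation p = 0.1).

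The lists of ribosomal proteins, cholesterol and fatty acid synthesis, glutamine metabolism and lysosomes are given beside the shares over all genes. Of all genes, 11.4% were called higher, 5.92% lower, and 30.6% were not called with an interval inside 2-fold. None of 20 cytosolic ribosomal protein genes was called in either direction by edgeR, DESeq2 or limma-voom, 3 had an unadjusted p under 0.05 with higher values in edgeR, and 7 were near the untreated level. The median was 0.42, and in 10 of the 20 all particle values lay above the untreated ones, against 22.9% of all genes. With library totals 4 were called higher (median 0.71). Rpl4 was at 1286, 749 and 1204 CPM against 1387, 1281 and 1419 CPM (log2 fold change 0.34, 95% interval -0.24 to 0.91), with untreated replicate 2 standing below the rest. Of 20 genes of cholesterol and fatty acid synthesis, 9 were near the untreated level and 3 were called lower (median -0.15, and 0.11 with library totals). Fdft1, squalene synthase, which overlaps Ctsb, was near the untreated level (log2 fold change 0.21, 95% interval -0.17 to 0.59). Acly, which supplies acetyl-CoA, was at 861, 1828 and 1140.0 CPM against 279.7, 617 and 187 CPM (log2 fold change -1.82, adjusted p = 0.0193), a call lost without untreated replicate 2, particle replicate 1 or particle replicate 3 (up to 0.0736). That list had 0 lower genes without untreated replicate 2, particle replicate 1 or particle replicate 3, 1 without untreated replicate 3, 5 without cytokine-only replicate 3 and 7 without particle replicate 2. Of 18 glutamine and glutamate genes, 5 were near the untreated level, 1 was called higher and 1 lower (median -0.15, and 0.12 with library totals). Glud1, glutamate dehydrogenase, was at 81.9, 97.2 and 83.3 CPM against 72.0, 73.3 and 95.4 CPM (log2 fold change -0.13, 95% interval -0.53 to 0.28). Gad1, which makes the transmitter GABA in beta cells, was at 123, 117 and 99.8 CPM against 63.3, 68.5 and 45.4 CPM (log2 fold change -0.94, adjusted p = 0.00953). Got2, a mitochondrial transaminase, was called higher (log2 fold change 0.82, adjusted p = 0.0220), but not without untreated replicate 2, untreated replicate 3 or particle replicate 1 (up to 0.0906), and the lower genes of this list were 2 without untreated replicate 1 and 4 without particle replicate 2.

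Of 21 genes for lysosomes, autophagy and particle uptake, 11 were near the untreated level, 3 were called higher and 0 lower (median 0.14). Ctsb, a lysosomal protease, was at 529, 516 and 489 CPM against 1466, 923 and 1918 CPM (log2 fold change 1.49, adjusted p = 0.00637), and Sqstm1, an autophagy receptor and NRF2 target, at 985, 639.9 and 874 CPM against 3588, 2640.2 and 1982 CPM (log2 fold change 1.72, adjusted p = 0.00360). Atg7, an enzyme of autophagosome formation, was near the untreated level at 23.2, 22.95 and 24.4 CPM against 25.7, 26.2 and 22.1 CPM (log2 fold change 0.07, 95% interval -0.32 to 0.45). Among 20 genes of matrix and wound response, 3 were called higher and 2 lower (median -1.06), against 11.4% and 5.92% of all genes. Plaur, the urokinase receptor, was at 1.24, 3.54 and 1.94 CPM against 8.91, 14.5 and 20.9 CPM (log2 fold change 2.73, adjusted p = 0.00352). The lower genes were the basement membrane collagens Col4a1 (log2 fold change -1.80, adjusted p = 0.0449) and Col4a2 (-1.88, adjusted p = 0.0254), and neither was called without untreated replicate 2, untreated replicate 3, particle replicate 1 or particle replicate 3, nor Col4a1 without untreated replicate 1 or cytokine-only replicate 1. The summed markers of endothelial and stellate cells, which make such collagens, are given below, and their part in these values was not tested.

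**Figure D4:**
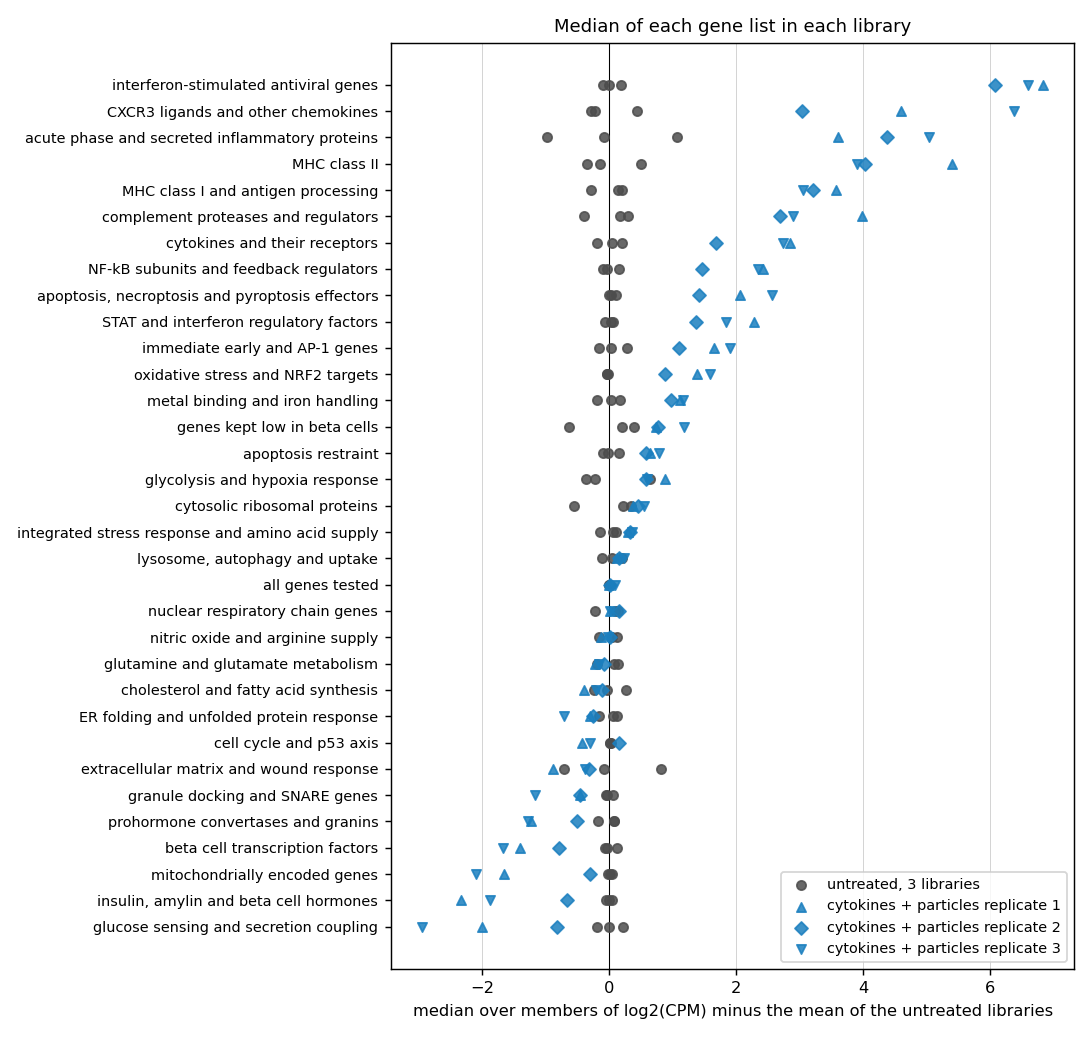
For each list (rows), the median over its members of log2 CPM minus the untreated mean (x axis) in each untreated library (circles) and in particle replicates 1 (triangle), 2 (diamond) and 3 (inverted triangle). Particle replicate 2 lies near the other particle libraries in the interferon list (6.07 against 6.84 and 6.59) and nearer to the untreated libraries in the glucose sensing list (-0.83 against -2.0 and -2.95).

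Transcripts of the other endocrine cells were far lower in particle replicates 1 and 3 than in replicate 2. Gcg, which encodes glucagon and marks alpha cells (chromosome 2 from 62304874 to 62313994), was at 7103, 14080.0 and 26464 CPM against 395, 7543 and 65.1 CPM. Its particle replicate 2 lay inside the untreated range while the other particle libraries were far below it, so the gene was not called (log2 fold change -2.57, adjusted p = 0.262, and -6.14 with an adjusted p of 0.00426 without that library). With all libraries Gcg was called lower by limma on log2(FPKM + 1). Of 9 alpha cell markers, 3 were called lower with all libraries and 8 without particle replicate 2. Sst, the delta cell hormone, was at 932, 2239 and 2381 CPM against 41.9, 1552 and 83.2 CPM (log2 fold change -1.73, adjusted p = 0.351, and -4.94 with an adjusted p of 0.000358 without particle replicate 2). Ppy, the hormone of PP cells, was at 871, 1651 and 3222 CPM against 59.9, 906 and 34.5 CPM. Of 7 markers of delta, PP and epsilon cells, 1 was called lower, or 6 without particle replicate 2, and that 1, Hhex, was lost without untreated replicate 2 or 3 or particle replicate 1 or 3 (adjusted p up to 0.0845). Among 12 endothelial markers 0 were called by edgeR with all libraries (3 lower at an unadjusted p under 0.05, and 2 called lower by DESeq2 and 2 by limma-voom), and 7 were lower without particle replicate 2, and their summed share of counts was 0.00547%, 0.0101% and 0.00374% against 0.00158%, 0.00460% and 0.00184%. Markers of stellate cells and pericytes took 0.00785%, 0.0256% and 0.0114% against 0.00251%, 0.00915% and 0.00260%. Of these 11 markers, 1 was called lower, Pdgfrb, a growth factor receptor, at 17.6, 20.5 and 14.2 CPM against 1.97, 7.68 and 3.05 CPM (log2 fold change -2.03, adjusted p = 0.0102). Acinar markers, which show carry-over of exocrine tissue, took 0.00856%, 0.151% and 0.0288% of untreated and 0.00256%, 0.340% and 0.0275% of particle counts, with the highest value in replicate 2 of both groups. None of 12 acinar markers was called by edgeR (1 lower at an unadjusted p under 0.05, 0 called by DESeq2 and 1 lower by limma-voom). The part of cell composition in the changes of beta cell and other genes was not tested.

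Of 10 duct and epithelial markers, 2 were called higher and 1 lower, against 11.4% and 5.92% of all genes. Krt8, a keratin, was at 162, 172 and 173 CPM against 585, 498 and 596 CPM (log2 fold change 1.73, adjusted p = 0.00156), and Krt18, its partner, was called too (1.17, adjusted p = 0.0127), although not without untreated replicate 2 or 3 (adjusted p up to 0.0576). Krt19 and Sox9, the defining duct genes, were not called. Epcam was near the untreated level (log2 fold change 0.12, 95% interval -0.29 to 0.54). The summed share of these markers was 0.103%, 0.0951% and 0.0990% against 0.186%, 0.159% and 0.198%. For Schwann cells and neurons 0 of 7 markers were called by edgeR (0 at an unadjusted p under 0.05, 0 called by DESeq2 and 1 lower by limma-voom). For lymphocytes and neutrophils it was 1 of 6, S100a9, with 2 untreated counts against 124 (ratio 67.2, counting interval 18.2 to 561), a call lost without untreated replicate 1, untreated replicate 3 or particle replicate 3.

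Macrophage markers did not move one way. Of 17, 5 were called higher, 2 lower, 4 were inside 2-fold and 6 were undecided (median 0.54). C1qc, a chain of complement C1q that macrophages make (ENSMUSG00000036896, chromosome 4 from 136617115 to 136620376), was at 33.8, 26.8 and 21.0 CPM in untreated and at 25.6, 25.3 and 42.1 CPM in particle islets. These values overlap (log2 fold change 0.19, 95% interval -0.37 to 0.75). Laptm5, a lysosomal protein of blood cells, was at 26.1, 14.0 and 15.9 CPM against 12.6, 15.7 and 17.7 CPM (log2 fold change -0.29, 95% interval -0.84 to 0.27), and Csf1r, the receptor on which macrophages depend, at 15.2, 16.0 and 11.9 CPM against 17.9, 13.0 and 13.6 CPM (0.04, -0.57 to 0.65). Trem2, a lipid receptor of macrophages, was inside 2-fold as well (log2 fold change -0.08, 95% interval -0.68 to 0.51). In contrast Cd68, a lysosomal membrane protein of phagocytes, was at 19.4, 16.2 and 11.9 CPM against 99.98, 69.7 and 162 CPM (log2 fold change 2.80 with SE 0.32, adjusted p = 0.000193). Ctss, a protease of antigen processing, was at 25.6, 24.7 and 17.1 CPM against 90.2, 60.9 and 152 CPM (log2 fold change 2.17, adjusted p = 0.00152). Both held their calls in every omission. C1qb, a partner chain of C1qc, was not called at 37.3, 27.3 and 24.1 CPM against 40.3, 29.5 and 57.5 CPM. C1qa, the remaining chain, was called lower at 153, 127 and 189 CPM against 46.7, 66.8 and 50.8 CPM (log2 fold change -1.51, adjusted p = 0.00843). The higher genes numbered 3 without untreated replicate 1 and 2 without untreated replicate 3. As a sum, these markers had a share of counts (given above) whose groups did not overlap, with particle replicate 2 at 0.0468% next to untreated replicate 1 at 0.0447% (exact two-sided permutation p = 0.1).

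**Figure D5:**
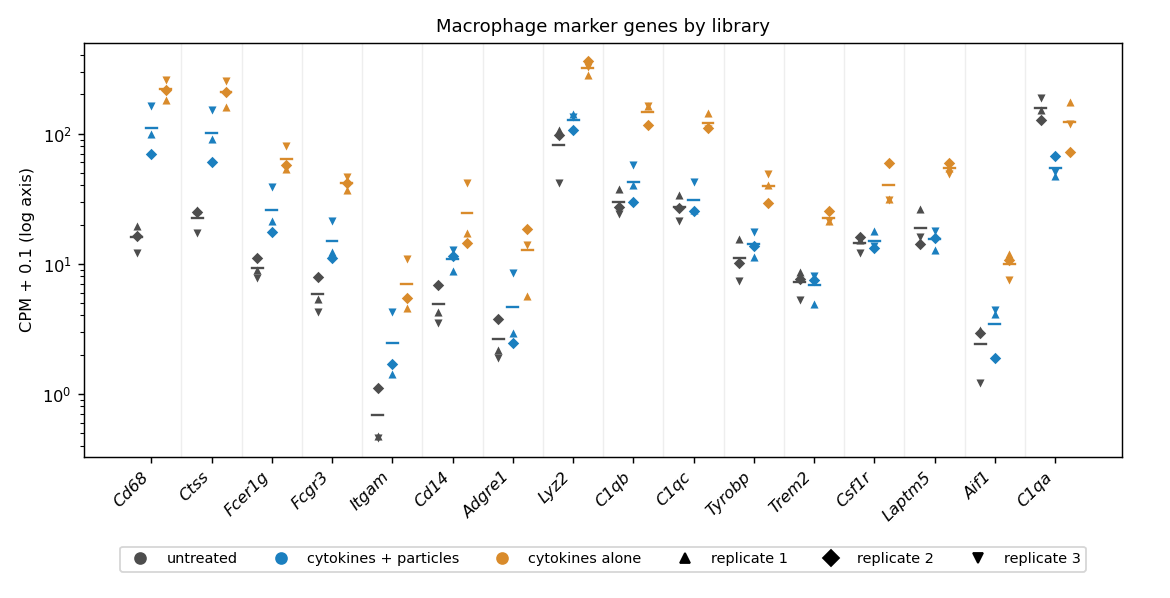
Levels (CPM + 0.1, log axis) of 16 of the 17 macrophage markers in each library of the untreated, cytokine-only and particle groups, with bars at the group means. C1qc, Csf1r, Trem2 and Laptm5 sit at the same height in untreated and particle libraries (C1qc at 21.0 to 33.8 and 25.3 to 42.1 CPM) and higher in the cytokine-only libraries, while Cd68 and Ctss are higher in both.

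The cytokine-only libraries were compared with the same untreated libraries, so the comparisons share their controls, and only values are set side by side. With cytokines alone 3568 genes (20.7%) were called higher and 3274 (19%) lower, against 1961 and 1022 with particles. Without particle replicate 2 the counts with particles were 2424 and 2121. All 25 interferon genes, all 9 class II genes and 15 class I genes were called higher with cytokines alone, as they were with particles. B2m was at 4834, 4873 and 6324 CPM with cytokines alone, within the range of the particle libraries. Irf7 was at 313, 231 and 395 CPM with cytokines alone and at 349, 247 and 242 CPM with particles. Of the macrophage markers, 15 of 17 were called higher with cytokines alone, with C1qc at 143, 110.3 and 108 CPM. With particles 5 were called higher, both with and without particle replicate 2. Of the beta cell transcription factors, 16 of 19 were called lower with cytokines alone and 12 with particles, or 15 without particle replicate 2. Mafa was at 70.2, 51.3 and 41.6 CPM with cytokines alone, a range that holds 1 particle library (50.7 CPM), with another just above it (74.5 CPM), while the third stood at 1263 CPM. In the ER list 2 genes were higher and 11 lower with cytokines alone. With particles the counts were 0 and 3, or 0 and 5 without particle replicate 2. The direct test of particle against cytokine-only islets in edgeR called 0 of 17276 genes, with 2603 at an unadjusted p under 0.05 and a smallest adjusted p of 0.0638. DESeq2 called 783 in that test, 487 higher and 296 lower with particles. A gene that passed in one comparison with untreated islets and not in the other is therefore not shown to differ between cytokines with and without particles.

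A further 10 genes were picked by rule as called at 4-fold or more with cytokines alone, not called with particles, and closest to the untreated mean. They were Angptl2, C1qc, Trim66, Cryab, Itgax, Lgals1, Sh3pxd2b, Slc6a19, Pik3ap1 and Tm4sf1. The rule used these values, so they are a description. Sh3pxd2b, an adaptor of invasive cell protrusions, was at 3.47, 5.66 and 4.70 CPM in untreated, 21.8, 27.6 and 34.6 CPM in cytokine-only and 6.25, 4.98 and 7.72 CPM in particle islets. The particle values of Sh3pxd2b overlapped the untreated ones and lay below every cytokine-only library. Of the 10, only C1qc had an interval inside 2-fold, so the others are undecided as to the untreated level.

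By another rule the 10 largest changes in each direction were named among called protein-coding genes with at least 5 CPM and no overlap. Ranked by the fitted log2 fold change, which for genes with no or few untreated counts depends on the prior count, the largest increases were Ifnl2, Ubd, Olfr56, Cxcl9, Tgtp1, Cxcl3, Iigp1, Cxcl11, Cxcl10 and Serpina3f, of which all but Cxcl3 held in every omission. Olfr56 and Cxcl3 are known only to be at least 9.27 higher on the log2 scale, and Ifnl2 at least 10.39. These bounds are less than the 10.81 of Gbp2. The places of Ifnl2, Olfr56 and Cxcl3 among the 10, and the first rank of Ifnl2, thus rest on the fit. Ifnl2, which encodes an interferon lambda and overlaps Samd4b, had no count in untreated islets and 99.2, 52.6 and 16.7 CPM in particle islets, at least 1339-fold higher. Ubd, a ubiquitin-like modifier induced by cytokines, was at 0.413, 0.0920 and 0 CPM against 2070.2, 847 and 526 CPM (log2 fold change 12.73 with SE 0.97, adjusted p = 1.14e-05). Tgtp1 and Iigp1, interferon-induced GTPases, had log2 fold changes of 12.37 and 11.98 (adjusted p = 1.46e-06 and 3.10e-06). Olfr56, at least 619-fold higher, spans Tgtp1 and other GTPase genes, so its reads may be theirs. The largest decreases were Trpm5, Sorcs2, Kcnk3, Nptx1, Oxtr, Lrrn2, Ltbp2, Emid1, Cib3 and Ffar3. Nptx1, a secreted pentraxin of neurons and endocrine cells, was at 12.4, 18.6 and 22.9 CPM against 1.67, 3.98 and 1.05 CPM (log2 fold change -3.00, adjusted p = 0.00969). Cib3, a calcium-binding protein, was at 69.2, 46.3 and 48.3 CPM against 6.25, 14.9 and 4.05 CPM (log2 fold change -2.69, adjusted p = 0.00316). Ffar3, a receptor of short-chain fatty acids, was at 32.0, 53.03 and 43.0 CPM against 3.74, 16.0 and 0.828 CPM (log2 fold change -2.63, adjusted p = 0.0428). All of these lay below every untreated library, with particle replicate 2 the highest particle library. Trpm5, Nptx1 and Cib3 held their calls in every omission, and the other 7 lost theirs in 1 to 7 of the 9 omissions.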

How the data were processed

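RNA of 3 untreated, 3 cytokine-only and 3 particle islet libraries was extracted with RNeasy and prepared with a standard Illumina library protocol, per the labels. The authors deposited a count per gene (HTSeq, GRCm39/mm39 and DESeq2 are named in the submitters' processing notes, their settings and versions are not given in the sources used here) and an FPKM table. The deposited FPKM values are counts over gene length, scaled by a factor for each library of 0.860 to 1.19 times its total count. Strand handling is not given either, so reads of overlapping genes cannot be told apart. The untreated columns were matched to the untreated samples as the 1 set left after the names of the other groups. Replicates of each group differed by more than counting noise.

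From 56748 genes in the count table, 17276 passed edgeR's filterByExpr at a minimum count of 10. Counts were fitted with edgeR 4.0.16 (TMM, quasi-likelihood, R 4.3.3) on all 9 libraries with 3 groups, and p-values were adjusted by Benjamini-Hochberg over all genes tested. The test was run on simulated counts of genes that had already passed the filter, so the filter was not checked. The simulation gave all groups the same fitted spread and held no library set apart like particle replicate 2. Alternatives used DESeq2 1.42.0, limma 3.58.1 (voom, or trend on log2(FPKM + 0.1 or + 1)), other scalings and filters, the replicate number as a block, and each library left out. Folds against a group with no count use a floor of 3 counts over the group, and ratios with 1 to 3 untreated counts carry a 95% counting interval. Both cover counting error only.

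The 42 lists (10 of them cell type markers, 635 symbols, of which 6 are not in the table and 25 were below the filter) and the rules were chosen with earlier results of these data known. Genes were named by rule: the 10 largest called changes in each direction (protein-coding, at least 5 CPM, no overlap), up to 3 called members per list with the smallest adjusted p, up to 2 members per list of at least 5 CPM with the narrowest interval inside 2-fold, 10 genes called at 4-fold with cytokines alone and closest to untreated with particles, and a set of 24 islet and inflammation genes. Named outside the rule, after their values were seen, were Adcyap1, C1qa, C1qb, Cd59a, Ciita, Col4a1, Col4a2, Csf1r, Gbp2, Glp1r, H2-K1, Hspa5, Ifi30, Ifih1, Il1r1, Il6ra, Il6st, Irf1, Krt19, Lcn2, Mki67, Phgdh, Qdpr, Shmt2, Socs3, Sox9, Tnf, Tnfaip3, Tnfrsf1a and Trem2, and the members listed for holding or losing a call. A few genes of the lists are counted in them but not reported here by name.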

Additional observations from a re-analysis of the deposited data

How the results depend on the processing

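With library totals and no TMM factors 3193 genes were higher and 597 lower. DESeq2 gave 1940 lower genes. limma on log2(FPKM + 1) gave 2022 lower genes and 11672 inside 2-fold, and on log2(FPKM + 0.1) 1622 lower genes. Leaving out 1 library at a time gave 887 to 2424 higher genes, 224 to 2121 lower genes and 4182 to 5736 inside 2-fold, with the fewest higher genes without untreated replicate 3, the fewest lower genes without particle replicate 1 and the most of both without particle replicate 2. Leaving out insulin and mitochondrial genes, an alternative chosen after seeing the data, gave 1924 higher and 1018 lower. The causes of these moves were not tested. As a share of the TMM-scaled total, mitochondrial transcripts differed by -0.785 percentage points in place of -0.506. Duct markers differed by 0.0559 on that scale. As a share of all counts their group means were 0.0991% in untreated and 0.181% in particle islets, a larger difference.

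The labels do not say whether the replicate numbers pair the libraries. Deviations from the group mean in untreated and particle libraries with the same number correlated at 0.206, 0.0833 and -0.104. With different numbers they correlated at -0.190 to 0.121. Deviations within a group are not independent, so these values do not settle pairing. With the replicate block 1628 genes were higher and 970 lower. Among the listed and named genes, no called change reversed in any alternative run.

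Depth was not equal, the cytokine-only libraries had up to 55865759 counts, and 3 libraries a group cannot give an exact permutation p under 0.1. The 95% interval had a median half-width of 0.73 (log2), so changes well under 2-fold were mostly undecided.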
